A study of Mus musculus with 9 samples.

Results

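The noncoding RNAs described here mostly work in the nucleus or carry small nucleolar RNAs (snoRNAs) in their introns. They are Malat1, Neat1, Kcnq1ot1, Rn7sk, Rpph1, Rmrp, Gas5, Snhg1, Snhg12 and Norad, 10 of the 55487 mouse genes in the deposited tables. They were picked by name with their values in these same libraries known, so their changes between days are given as descriptions, without p-values. They stayed in the fit of all genes, and how many of them passed its threshold is printed once and not read as support. The tables hold 9 of the 10 under their own symbols. Norad stands there as 2900097C17Rik (ENSMUSG00000102869), matched through a RefSeq synonym and its position. Rmrp has a second, overlapping gene model, so the members fill 11 rows, and all 11 passed the filter on low counts.

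The cells were PT-22, a mouse kidney proximal tubule line of genotype Pax2-/-, Pax8fl/fl, Rosa-CreERT2 that carries the Pax8-pTRIPZ vector. Every group shares this genotype and vector. Each group holds 3 libraries, replicates A, B and C. Day 0 cells were untreated, day 6 cells had been given 4-hydroxytamoxifen (1 uM), and day 12 cells had afterwards been given doxycycline (1 ug/ml) every 2 days. One label gives 2 days of 4-hydroxytamoxifen and another 6 days of depletion. The labels do not say whether the replicates were separate cultures, so p-values measure only how far these libraries differ, and that may be technical. Time in culture, both drugs and the level of PAX8 cannot be told apart, since no vehicle control, untreated later sample or doxycycline-free day 12 sample was analysed here.

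Library totals ran from 56397100 to 86765292 counts, with 21213 to 22139 genes detected. The row of Pax8 averaged 291 CPM (counts scaled to library size) at day 0, then 405 and 496, so it was no lower in the libraries labelled as depleted. Counts per gene do not show whether the floxed exons were still present, and groups are called by day. The mitochondrial share of the counts was 6.66% to 7.18% at days 0 and 6 and 2.10% to 3.96% at day 12. Of 15 proximal tubule markers, 8 stayed under 1 CPM in every library, and Slc34a1 and Slc22a6 were at 0. All 6 loop and distal tubule markers and all 5 endothelial markers stayed under 1 CPM. The sum of 5 podocyte markers was 439 to 450.3 CPM at day 0, 281 to 287 at day 6 and 367 to 389 at day 12, nearly all from Synpo and Podxl. For 6 immune markers it was 40.6 to 45.9, 22.1 to 25.3 and 26.6 to 27.6 CPM, mostly Csf1r and Cd68, with Cd3e at 0. The proximal tubule sum was 615 to 713 CPM at day 0, 487 to 525 at day 6 and 518 to 574 at day 12. At day 6, 5 of 7 tested proximal tubule markers, 3 of 4 podocyte and 2 of 3 immune markers were lower. The proximal tubule markers Aqp1 and Anpep, 2 of the 7, were higher. Of 4 stromal markers 2 were higher and 1 lower, and 1 of 2 collecting duct and 1 of 2 endothelial markers were higher. Of all genes tested, 33.5% were higher and 31.4% lower. Sums stayed under 9 CPM for collecting duct markers and under 14 CPM for stromal ones. The part of these shifts in the results was not tested. In bulk samples, fewer cells of a type and less RNA per cell cannot be told apart.

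Malat1 builds up in nuclear speckles, the stores of splicing factors, and Neat1 is the scaffold of paraspeckles. Kcnq1ot1 is the imprinted antisense RNA of the Kcnq1 domain. The short RNAs are made by RNA polymerase III: Rn7sk (7SK) holds the elongation factor P-TEFb inactive, Rpph1 is the catalytic RNA of RNase P, and Rmrp is the RNA of RNase MRP, which cuts ribosomal RNA precursors. Gas5, Snhg1 and Snhg12 are spliced hosts whose introns release snoRNAs, the guides of ribosomal RNA modification, while the spliced RNA of Gas5 is a target of nonsense-mediated decay. Norad is mainly cytoplasmic and known for binding PUMILIO proteins. RNase P also cuts the 3′ end of Malat1, which is stabilised by an A-rich tract in place of a poly(A) tail.

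The libraries were made from polyA RNA, so the letters at the 3′ ends bear on what could be captured. The last 60 bases of the 3 polymerase III RNAs are shown with T in capitals, from the GENCODE M21 transcripts (GRCm38, minus strand). They lie at chr9:78175303-78175362, chr14:50807449-50807508 and chr4:43492788-43492847.
Rn7sk: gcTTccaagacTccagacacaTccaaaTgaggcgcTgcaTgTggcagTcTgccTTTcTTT
Rpph1: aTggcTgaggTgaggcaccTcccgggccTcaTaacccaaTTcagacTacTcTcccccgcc
Rmrp: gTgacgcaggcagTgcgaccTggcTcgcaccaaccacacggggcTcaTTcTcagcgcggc

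Rn7sk ends in a run of T interrupted by 1 C, while the annotated Rpph1 and Rmrp end without one. None of the 3 holds a run of A longer than 3 bases, over lengths of 331 for Rn7sk, 319 for Rpph1 and 271 for Rmrp. Malat1, of 6983 bases, holds a run of 12 A near its 3′ end, in capitals below (GRCm38, chr19:5795960-5796029, minus strand, bases 6644 to 6713).
Malat1: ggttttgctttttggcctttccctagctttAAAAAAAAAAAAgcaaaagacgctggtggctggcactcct

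The run sits inside the annotated transcript, and the bases after it are still part of the counted gene. The longest run of A was 7 bases in the long Neat1 (20771 bases), 41 in the unspliced Kcnq1ot1 (93092 bases) and 7 in Norad (4915 bases). How reads from RNAs with no poly(A) tail entered the libraries was not tested.

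Levels are compared between genes in TPM, which corrects for length. Set against Norad, its divisor was smaller than in proportion to annotated length for the 3 short RNAs. The same held for Malat1, Neat1, Gas5, Snhg1 and Snhg12. In replicate A of day 0, counts per TPM were 301.2 for Norad (4915 bases) and 5.1 for Rn7sk (331 bases). They were 4.528 for Rpph1 (319 bases) and 2.495 for Rmrp (271 bases). For Gas5 (3760 exon bases) they were 21.6, and for Snhg1 (2969 exon bases) 27.6. Against annotated length this raises those RNAs over Norad, so the order below holds for TPM only. In CPM, Malat1 averaged 1545 and Rn7sk 30.99 at day 0. At day 0, Malat1 stood at 550.0 ± 116 TPM and Rn7sk at 534 ± 154, which did not differ beyond their spread. Gas5 followed at 221 ± 10.4, then Snhg1 at 171 ± 13.6 and Rmrp at 170.2 ± 25.3, and those last values also lay within their spread. Norad stood at 107 ± 3.32, Neat1 at 44.1 ± 5.05, Rpph1 at 31.7 ± 6.69 and Snhg12 at 28.8 ± 0.931 TPM. The values of Rpph1 and Snhg12 lay within their spread. Kcnq1ot1 was lowest at 0.153 ± 0.0451 TPM (SD, n = 3 for each), a level spread over its great annotated length. At day 12 the leading RNAs stood in the same order at lower levels, with Malat1 at 264 ± 34.7, Rn7sk at 244 ± 66.9 and Gas5 at 172 ± 11.3 TPM.

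**Figure D1:**
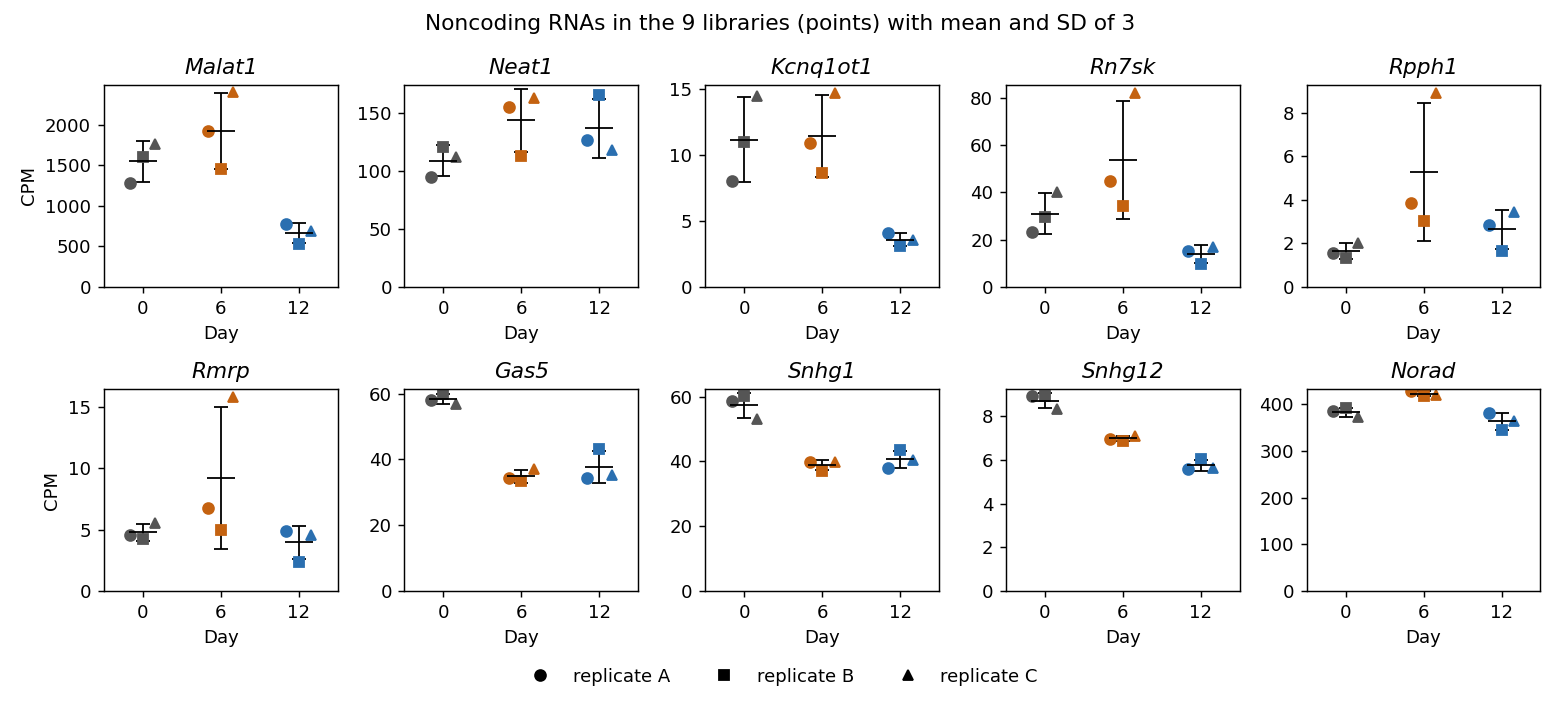
CPM of the 10 noncoding RNAs (y axes from 0) by day (x axes), with 1 point per library, its shape giving the replicate, and the mean with SD of 3 libraries in black. Malat1, Kcnq1ot1 and Rn7sk are lowest at day 12 in every library, Gas5, Snhg1 and Snhg12 are highest at day 0, and replicate C of day 6 stands highest for Rn7sk, Rpph1 and Rmrp.

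Of the 11 rows, 8 passed the edgeR threshold (adjusted p under 0.05) between day 6 and day 0, where 64.9% of all 16353 genes tested did (33.5% higher and 31.4% lower). Between day 12 and day 6 the count was 7, against 45.3% of all genes, and between day 12 and day 0 it was 7, against 66.4%. Since the members were picked on these comparisons, nothing is read from those counts. The day 6 and day 12 comparisons also share samples, as do those with day 0.

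Malat1 measured 1276, 1600.25 and 1761 CPM in replicates A, B and C of day 0, 1915, 1453 and 2395 at day 6, and 771, 534 and 687 at day 12. The day 12 libraries lay below all 6 others, while days 0 and 6 overlapped. Day 6 against day 0 gave a log2 fold change of 0.31 ± 0.16 (SE), and day 12 against day 6 gave −1.53 ± 0.16, a level 2.89-fold lower. With 1 library left out, the first value lay between 0.12 and 0.46 and the second between −1.69 and −1.34. Its change relative to the median of all genes on the TPM scale was −1.49 for the later step.

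Kcnq1ot1, counted at 215 to 1005 reads per library, followed the same course. It measured 8.04, 11.01 and 14.5 CPM at day 0, 10.96, 8.62 and 14.7 at day 6, and 4.11, 3.11 and 3.56 at day 12. Again the day 12 libraries lay below all others and the earlier groups overlapped. Its log2 fold changes were 0.03 ± 0.19 and then −1.66 ± 0.21, a level 3.16-fold lower at day 12 than at day 6. The first value changed sign with 1 library left out, between −0.19 and 0.26. Across the 9 libraries log2 CPM of Malat1 and Kcnq1ot1 correlated at r = 0.98 (n = 9), and at 0.94 after subtracting group means. The pair was not set apart by this. After the same subtraction Malat1 correlated with Rn7sk at 0.94, with Rmrp at 0.87 and with Rpph1 at 0.82, and Kcnq1ot1 with Rn7sk at 0.91.

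Neat1 did not share that course. It measured 94.4, 120.3 and 112.0 CPM at day 0, 155, 113 and 163 at day 6, and 127, 166 and 118 at day 12. All 3 groups overlapped. Its log2 fold changes were 0.40 ± 0.13 at the first step and −0.07 ± 0.13 at the second, the latter 0.15 on the TPM scale. Leaving out 1 library moved the first from 0.30 to 0.53. The correlation with Malat1, its neighbour on chromosome 19, was −0.02 over the 9 libraries. The gene row pools the long Neat1 with a short form of 3004 bases, so its values do not give the level of either form.

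Rn7sk, whose RNA sequesters P-TEFb, measured 23.1, 29.7 and 40.1 CPM at day 0, 44.8, 34.4 and 81.8 at day 6, and 15.4, 9.83 and 16.9 at day 12. The day 12 libraries lay below all others, and 1 day 6 library lay within the day 0 range. On the log2 scale the changes were 0.79 ± 0.26, then −1.93 ± 0.28, a level 3.82-fold lower. Without replicate C of day 6 the first value was 0.36 ± 0.20.

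Rpph1, counted at 83 to 517 reads per library, measured 1.57, 1.33 and 2.03 CPM at day 0, 3.86, 3.05 and 8.90 at day 6, and 2.86, 1.66 and 3.43 at day 12. Day 6 lay above day 0 in every library, and day 12 overlapped with both. Its log2 fold change of 1.66 ± 0.35 for day 6 against day 0 was the largest among the 10 RNAs, counting the main Rmrp model only. Without replicate C of day 6 it was 1.07 ± 0.24. For day 12 against day 6 it was −0.98 ± 0.33, and −0.39 ± 0.23 without that library.

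Rmrp measured 4.59, 4.24 and 5.58 CPM at day 0, 6.80, 5.01 and 15.8 at day 6, and 4.89, 2.41 and 4.59 at day 12. Replicate C of day 6 stood well above the other 8 libraries. The log2 fold change was 0.92 ± 0.33, then −1.20 ± 0.34. Without that library these were 0.29 ± 0.22 and −0.58 ± 0.22. The overlapping model of Rmrp held 0 to 27 reads per library, and its values are not used further.

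Replicate C of day 6 was the highest library for Rn7sk, Rpph1 and Rmrp. It was also the highest for a ribosomal RNA row and for Rn7s2 of the signal recognition particle. The likeness did not hold throughout. Rn7s2 measured 15.9, 7.06 and 10.9 CPM at day 0 and 19.4, 8.68 and 17.8 at day 12, where Rn7sk was lowest. The row CT010467.1, annotated as ribosomal RNA, measured 8140.40, 8795 and 9834 CPM at day 0, 11048.5, 8629 and 18175 at day 6, and 6308, 3868 and 6138 at day 12. Replicate C was highest at day 6 and replicate B lowest at day 12. After subtracting group means, its log2 CPM correlated with Rmrp at 0.988 and with Rpph1 at 0.957 over the 9 libraries. Rn7sk correlated with Rmrp at 0.93 and with Rpph1 at 0.93 on the same measure. The part of ribosomal RNA carry-over in these values was not tested.

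**Figure D2:**
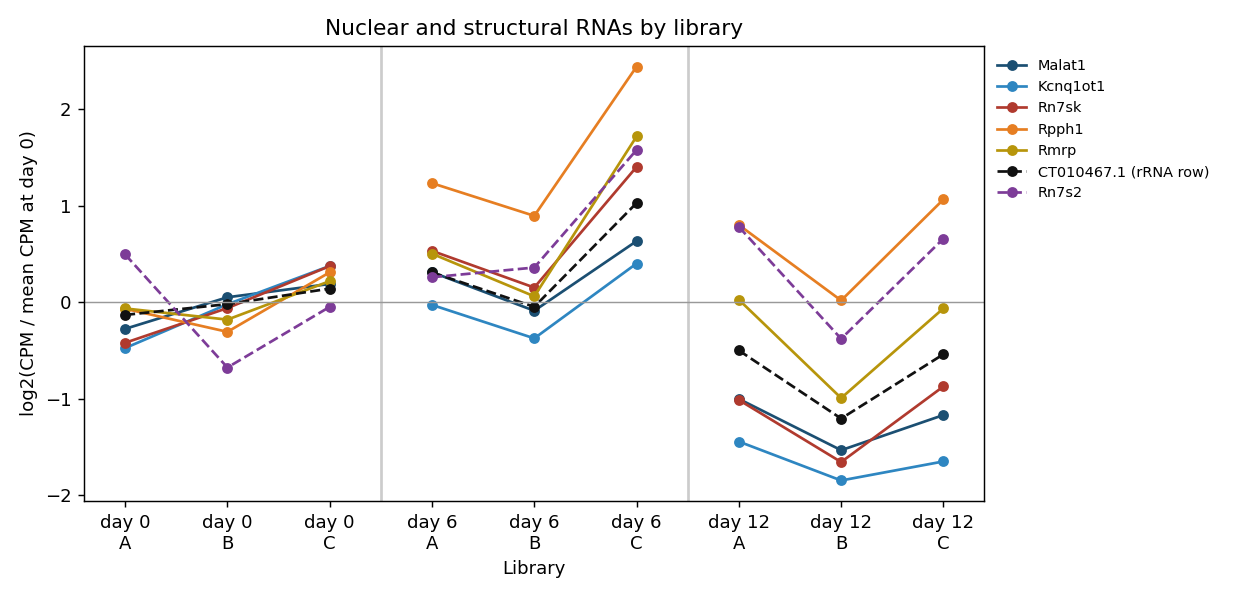
log2 ratio of each library's CPM to the day 0 mean (y axis) for 5 of the noncoding RNAs (solid) and for the ribosomal RNA row and Rn7s2 (dashed), in the 9 libraries (x axis). Lines join the replicates of a day only to mark the RNA; at day 6 replicate C is the highest for all 7, and at day 12 replicate B is the lowest for all 7.

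Of 35 rows of other small structural RNAs (spliceosomal, signal recognition particle, Y, vault and Cajal body RNAs), 22 were at 0 in every library and 4 passed the filter. Between day 6 and day 0, 3 rose and none fell. DESeq2 and limma on log2(TPM + 1) each called 1 of the 4. The median log2 fold change of the 4 was 1.21, against 0.02 over all genes. They were Scarna10, a Cajal body RNA (1.58 ± 0.42), and Rn7s1 and Rn7s2, the RNAs of the signal recognition particle (2.23 ± 0.59 and 0.83 ± 0.35). Rn7s1 and Rn7s2 are near-identical copies among which reads may be split. Each stood at 14.5 CPM in replicate B of day 6, but they stood at 0 and 15.9 CPM in replicate A of day 0. Their separate values, the 2.23 of Rn7s1 above all, are therefore uncertain, and they may not be separate rises. Rn7s2 also peaked in replicate C of day 6, at 33.7 CPM, and without that library 2 of the 4 rose. At the later step 2 fell, also in TPM, Scarna2 (−2.14 ± 0.40) and Scarna10 (−1.51 ± 0.41), and 1 did without that library.

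Of 8 other nuclear and chromatin-bound long noncoding RNAs that passed the filter, 3 rose and none fell between day 6 and day 0, or 37.5%, near the 33.5% of all genes that rose. Without replicate C of day 6, 3 rose and 2 fell of 9. Those that rose with all libraries were Tug1 (0.23 ± 0.03), Airn, the imprinted antisense RNA of Igf2r (1.53 ± 0.26), and Ftx of the X inactivation centre (0.42 ± 0.14). Between day 12 and day 6, 5 fell and none rose, with a median of −0.31, and without replicate C of day 6, 3 fell and 1 rose. Firre, an anchor of nuclear architecture, fell by 0.52 ± 0.09 on the log2 scale. Tug1 fell by 0.22 ± 0.03 in counts but was at 0.03 on the TPM scale. There, 1 of the 8 fell.

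TPM and counts set the later step at different places. The median log2 fold change of all genes for day 12 against day 6 was 0.01 in counts and 0.16 on the log2(TPM + 1) scale, where limma called 48.9% of genes higher and 5.37% lower, against 22.6% and 22.7% by edgeR on counts. Small changes at day 12 therefore depend on that choice, and the split on the TPM scale is given beside the lists. For day 6 against day 0 the TPM median was 0.03, with 31.7% of genes higher and 24.8% lower. By edgeR on counts 33.5% were higher and 31.4% lower. A list with counts near the shares of its step and scale is not set apart from all genes.

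The 3 snoRNA hosts had their highest levels at day 0. Gas5 measured 58.0, 59.99 and 56.9 CPM at day 0, 34.3, 33.3 and 37.1 at day 6, and 34.4, 43.2 and 35.4 at day 12. Both later groups lay below day 0 in every library and overlapped each other. Its log2 fold change was −0.74 ± 0.07 at the first step and 0.11 ± 0.07 at the second. On the TPM scale the later value was 0.46, or 0.30 above the median of all genes.

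Snhg1 measured 58.6, 60.3 and 52.9 CPM at day 0, 39.9, 37.1 and 39.7 at day 6, and 38.1, 43.4 and 40.5 at day 12. It lay below day 0 in all 6 later libraries. The log2 fold change was −0.56 ± 0.05, then 0.06 ± 0.05, with 0.34 on the TPM scale for the later step. Snhg12 measured 8.92, 8.90 and 8.32 CPM at day 0, 6.96, 6.88 and 7.11 at day 6, and 5.58, 6.06 and 5.62 at day 12. Here the 3 groups did not overlap in CPM, with log2 fold changes of −0.32 ± 0.06 and −0.28 ± 0.07, although the later one was 0.01 on the TPM scale. Gas5 and Snhg1 correlated at r = 0.98 over the 9 libraries.

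The start regions of these hosts are shown to look for a 5′ terminal oligopyrimidine (TOP) start. Each line runs from 40 bases before the start to 20 bases from it (RefSeq, GRCm38.p6, plus strand), with the pyrimidine run that holds the first transcribed base and any TATA between 40 and 20 bases before it in capitals. They lie at chr1:161035126-161035185, chr19:8723447-8723506 and chr4:132308638-132308697.
Gas5: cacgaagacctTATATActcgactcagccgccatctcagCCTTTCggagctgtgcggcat
Snhg1: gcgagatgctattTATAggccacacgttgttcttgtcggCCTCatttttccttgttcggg
Snhg12: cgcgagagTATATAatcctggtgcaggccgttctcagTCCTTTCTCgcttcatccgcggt

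All 3 start within a run of 4 or more pyrimidines (C or T) and hold TATA in that window. Overlapping TATA matches in Gas5 and Snhg12 are written as TATATA. Of 32851 promoters in the RefSeq table, 14.0% had such a pyrimidine run, 5.34% had TATA in the window and 0.706% had both. TATA is its own reverse complement, so each match stands on both strands, while the run was read on the transcribed strand only. Gas5 has a second start in the table with neither feature, and the printed one was taken for its longer run. Among 15 other snoRNA hosts with a promoter there, 4 had the run, 2 had TATA, and 2 (Snhg7 and Snhg8) had both. Promoters of Malat1 and Kcnq1ot1 had neither.

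Most other snoRNA hosts were lower at day 6 too. Of 16 rows that passed the filter, 2 of them for Snhg4, 9 fell and 2 rose between day 6 and day 0, with a median of −0.37. Of all genes, 31.4% were lower. Dancr fell by 1.62 ± 0.12 on the log2 scale, from 7.11, 7.49 and 6.19 CPM to 2.63, 1.90 and 2.24, with no overlap (edgeR). Snhg6 fell by 0.79 ± 0.06 and Snhg3 by 0.58 ± 0.06. From day 6 to day 12, 3 rose and 1 fell, or 10 and none on the TPM scale. Snhg6 then rose by 0.37 ± 0.07, while Snhg17 fell by 0.48 ± 0.09 in counts.

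**Figure D3:**
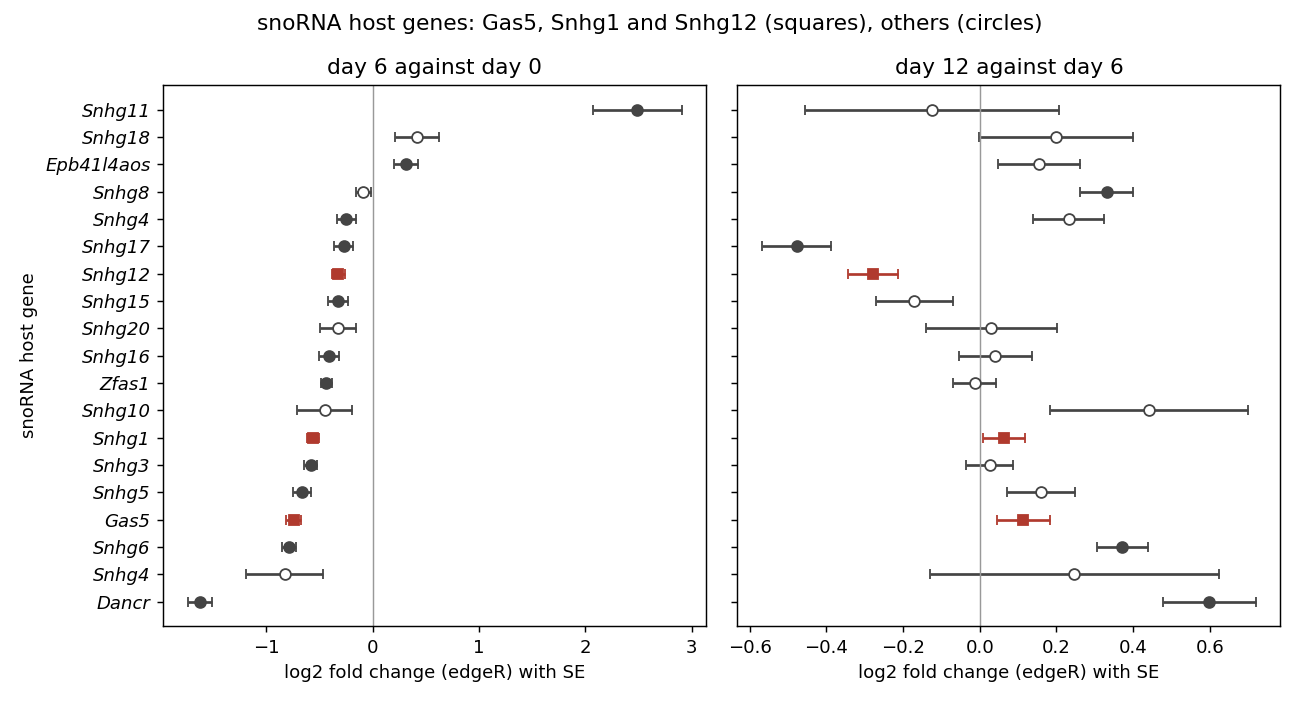
log2 fold change with SE (x axes) of the snoRNA hosts (y axis), for day 6 against day 0 and day 12 against day 6. Squares are Gas5, Snhg1 and Snhg12, drawn as values only; circles are the other hosts, filled where the adjusted p was under 0.05. Most hosts lie to the left at day 6, Dancr farthest at −1.62.

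The snoRNA rows inside the hosts held no reads in any library: 10 rows in Gas5, 8 in Snhg1 and 5 in Snhg12. These rows lie within exons of the host models on the same strand, so reads of snoRNA sequence counted to a host cannot be told apart from those of the spliced host. Proteins of the snoRNA particles were lower at day 6. Of 15 core and assembly proteins, 14 fell and none rose between day 6 and day 0 (also on the TPM scale), with a median of −0.43. The box C/D core protein Nop56 fell by 0.66 ± 0.03, the H/ACA core protein Nhp2 by 0.66 ± 0.03 and the H/ACA assembly factor Naf1 by 0.84 ± 0.04. From day 6 to day 12, 5 rose and 2 fell, or 13 and none on the TPM scale, with Nop10 up by 0.43 ± 0.05 and the assembly ATPase Ruvbl2 up by 0.21 ± 0.03.

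Of 16 nonsense-mediated decay factors, 7 fell and 4 rose between day 6 and day 0, with a median of −0.05. The 68.8% called were near the 64.9% of all genes. The junction protein Rbm8a fell by 0.29 ± 0.03 and Smg5 by 0.25 ± 0.03, while the kinase subunit Smg8 rose by 0.26 ± 0.04. The later step had 8 that fell and 1 that rose, or 2 and 7 on the TPM scale. The kinase Smg1 fell by 0.86 ± 0.09 and Upf2 by 0.36 ± 0.04 in counts. Of 19 nuclear exosome and adaptor proteins, 14 fell and 2 rose between day 6 and day 0, led by the core subunits Exosc8 (−0.52 ± 0.03) and Exosc2 (−0.57 ± 0.04) and the cofactor Mphosph6 (−0.46 ± 0.04). At the later step 3 rose and 5 fell, or 12 and 1 in TPM, with the nuclease Dis3 at −0.25 ± 0.03 and the adaptor Zfc3h1 at −0.47 ± 0.06.

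Most protein partners of Rpph1 and Rmrp were lower at day 6. Of 11 proteins of RNase P and RNase MRP, 7 fell and 1 rose between day 6 and day 0, with a median of −0.24, while the mean CPM of Rpph1 and Rmrp was higher. Pop1, the largest subunit of both enzymes, went from 82.3, 83.6 and 84.2 CPM to 33.3, 33.4 and 33.6, and then to 40.4, 39.7 and 41.5. It fell by 1.32 ± 0.03 (edgeR, adjusted p = 1.05e-14) and rose by 0.28 ± 0.03 at the later step. The lists, like the members, were chosen with earlier results of these data known, and Pop1 was named for its low adjusted p. Pop7 fell by 0.34 ± 0.05 and Rpp30 by 0.25 ± 0.04. In the later comparison 4 rose and none fell, or 8 and none in TPM, Pop7 by 0.18 ± 0.05.

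Among 24 subunits and factors of RNA polymerase III, 15 fell and 5 rose between day 6 and day 0, with a median of −0.13. The second-largest subunit Polr3b fell by 0.32 ± 0.03 and Polr1d, shared with polymerase I, by 0.36 ± 0.04. At the later step 10 fell and 2 rose in counts, with Bdp1 of TFIIIB at −0.27 ± 0.03 and Snapc3, of the complex that binds promoters of the 7SK kind, at −0.35 ± 0.05. On the TPM scale 10 rose and none fell, so the list has no direction at day 12 that holds on both scales.

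Of 11 genes of the 7SK particle and P-TEFb, 4 rose and 3 fell at day 6, with a median of 0.03. The 63.6% called were near the 64.9% of all genes. Larp7, which binds and protects the 3′ end of 7SK, fell by 0.31 ± 0.03. Hnrnpa2b1 and Hnrnpa1, which bind 7SK freed from P-TEFb, fell by 0.51 ± 0.04 and 0.37 ± 0.03. In the later comparison 3 rose and 5 fell in counts, or 6 and 1 in TPM, where 48.9% of all genes rose. Hnrnpr fell by 0.37 ± 0.03 and cyclin T2 (Ccnt2) by 0.38 ± 0.05 in counts.

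Of 19 paraspeckle proteins, 16 fell and none rose between day 6 and day 0, or 13 and none in TPM. Their median was −0.23, while the Neat1 row, with its long and short forms pooled, was at 0.40 ± 0.13. That row lay at 0.30 to 0.53 with 1 library left out, and its groups overlapped. The RNA-binding proteins Taf15, Tardbp and Dazap1 fell by 0.52 ± 0.04, 0.44 ± 0.04 and 0.37 ± 0.03. From day 6 to day 12, 4 rose and 11 fell, or 10 and 3 in TPM, with Rbm12 at −0.43 ± 0.04 and Ewsr1 at −0.37 ± 0.03. Of 20 nuclear speckle and SR proteins, 8 fell and none rose at day 6 (5 and 3 in TPM). The 40% called, all lower, lay below the 64.9% of all genes called, while 31.4% of all genes were lower. Among those that fell were the splicing factors Srsf2 (−0.31 ± 0.03), Srsf6 (−0.35 ± 0.03) and Rnps1 (−0.26 ± 0.03). Between day 12 and day 6, 8 fell and none rose, or 2 and 8 in TPM. The speckle scaffold Son stood at −0.46 ± 0.04 and the SR protein kinase Clk1 at −0.45 ± 0.06, against −1.53 for Malat1.

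**Figure D4:**
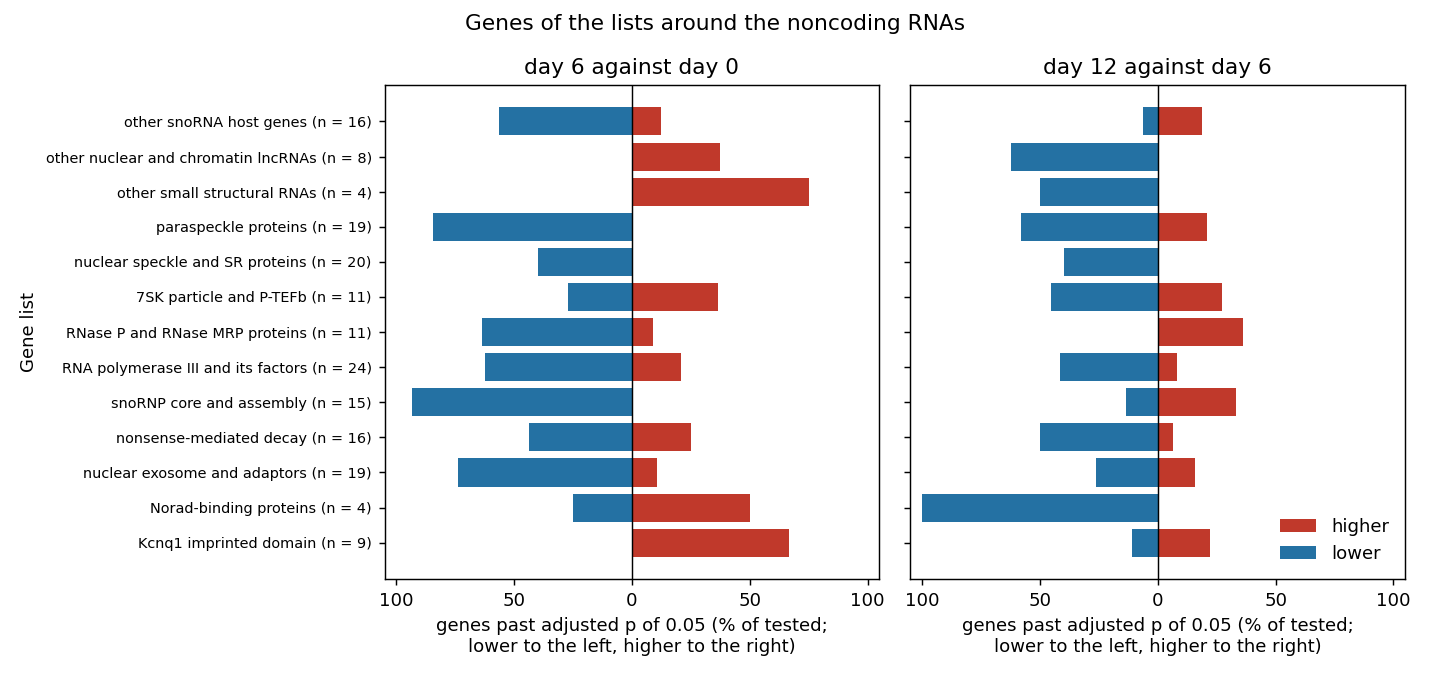
Share of the tested genes of each list (y axis, n tested in brackets) that were lower (left) or higher (right) past an adjusted p of 0.05 in counts (x axes, %), for day 6 against day 0 and day 12 against day 6. At day 6 the snoRNA particle list has 14 of 15 lower and the paraspeckle list 16 of 19 lower, and the Kcnq1 domain has 6 of 9 higher.

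Norad was the steadiest of the abundant RNAs. It measured 385, 391 and 372 CPM at day 0, 427.3, 417.6 and 419.6 at day 6, and 380.0, 344 and 363 at day 12. Day 6 lay above both other groups in every library. The log2 fold change was 0.14 ± 0.04, then −0.22 ± 0.04, the latter being near 0 on the TPM scale. Its transcript of 4915 bases holds 11 matches to TGTANATA, the Pumilio response element, searched on the transcribed strand, with none overlapping. The first 3 are shown in capitals (GRCm38, minus strand, at chr2:156392311-156392340, chr2:156391815-156391844 and chr2:156391626-156391655).
Norad 1: tagaagtcctgTGTATATAatatgaaaaag
Norad 2: agtaaacatgcTGTAAATAcctttttgtta
Norad 3: tggcttttcttTGTACATAgtgtatgtaaa

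Among 8904 other GENCODE M21 transcripts of 4000 to 6000 bases the median count was 0, and 2 (0.0225%) had at least as many. Malat1 has none, the long Neat1 has 4 and Kcnq1ot1 has 18 in a far greater length. Of 4 Norad-binding proteins, 2 rose and 1 fell between day 6 and day 0, among them Khdrbs1 (0.08 ± 0.03) and Rbmx (−0.29 ± 0.06). All 4 fell between day 12 and day 6 in counts, Khdrbs1 by 0.31 ± 0.03 and Pum2 by 0.24 ± 0.03, but 1 did in TPM, where Pum2 was near 0.

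Kcnq1ot1 lies inside Kcnq1 on the opposite strand, and silences genes of the domain in cis on the paternal chromosome. Of 9 genes of the domain, 6 rose and none fell between day 6 and day 0, also in TPM, with a median of 0.26, while Kcnq1ot1 was at 0.03. Osbpl5 rose by 0.85 ± 0.04, Cd81 by 0.26 ± 0.03 and Kcnq1, a potassium channel at 0.998 CPM on day 0, by 1.18 ± 0.16. The cell cycle inhibitor Cdkn1c, the nearest gene beyond Kcnq1ot1, rose by 0.21 ± 0.06. Between day 12 and day 6, where Kcnq1ot1 was at −1.66, 2 genes rose and 1 fell, or 3 and none in TPM. The 33.3% called in counts lay below the 45.3% of all genes, and in TPM 48.9% of all genes rose. Cd81 rose by 0.21 ± 0.03 and Tssc4 by 0.18 ± 0.04, Kcnq1 was at −0.04 ± 0.14 (0.09 in TPM), and Cdkn1c fell by 0.16 ± 0.06 in counts but stood at 0.07 in TPM.

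Genes that start beside these RNAs took various courses. Parp2, a DNA repair enzyme whose start lies 74 bases from that of Rpph1 on the other strand, fell by 0.67 ± 0.05 at day 6 and rose by 0.39 ± 0.05 at day 12, opposite in sign to Rpph1 at both steps. Slc3a2, the CD98 heavy chain of amino acid transporters, starts 106 bases from Snhg1. It fell by 0.44 ± 0.03, as Snhg1 was lower, and then rose by 0.70 ± 0.03 where Snhg1 was at 0.06. Zbtb37, which overlaps Gas5, was at −0.07 ± 0.07 at day 6. At day 12 it fell by 0.31 ± 0.07 in counts and was at 0.10 in TPM. Ccdc107 shares 124 exon bases with Rmrp on the opposite strand and passed in neither step, at −0.19 ± 0.09 and 0.09 ± 0.09. The strand setting of the counting is not given in the sources used here, so reads of Rmrp and Ccdc107 there, or of Kcnq1ot1 and Kcnq1, may not be told apart. Rpph1 also shares 233 exon bases on its own strand with Ccnb1ip1, whose row was at or near 0 in every library.

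Farther out, Wdr74, a ribosome assembly factor beyond Snhg1, fell by 0.46 ± 0.05 at day 6, and Arhgef39 beyond Rmrp fell by 0.58 ± 0.09. Frmd8, the nearest protein-coding gene beyond Neat1, rose by 0.48 ± 0.03 at day 6. In the later comparison it did not pass the threshold in counts, at −0.03 ± 0.03, and was at 0.15 in TPM. Epb41l1, beyond Norad, rose by 0.56 ± 0.03 and then fell by 0.24 ± 0.03.

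Libraries of 1 day differed more for most of these RNAs than for other genes of like level. The SD of log2 CPM within groups was at percentile 97.96 for Malat1, 99.9 for Neat1, 98.8 for Kcnq1ot1, 99.96 for Rn7sk, 98.7 for Rpph1 and 99.4 for Rmrp among genes of 0.5 to 2 times their own CPM. Gas5 was at 97.7 and Snhg1 at 93.8, but Norad at 69.4 and Snhg12 at 7.4. These percentiles are descriptions of 9 libraries.

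The genes most like each RNA, by Pearson's r of log2 CPM over the 9 libraries among 11584 genes, were mostly not its list partners. Malat1 was nearest to Nfib, a transcription factor (r = 0.991), Kcnq1ot1 to Nktr (0.997), Neat1 to Arntl2 (0.946), and Rn7sk to Dpp8 (0.985), with the ribosomal RNA row next (0.982). Rmrp was nearest to Lars2 (0.943), whose row averaged 473, 810.4 and 486 CPM over the 3 days in turn. Gas5 was nearest to Map7 (0.990), Snhg1 to Nsl1 (0.995), Rpph1 to Syt14 (0.943) and Norad to Zfp407 (0.982). Snhg12 was nearest to Dlst (0.996) and Gnl3, a nucleolar GTPase (0.995). The 9 points share 3 group means, so these values describe likeness in these libraries only.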

How the data were processed

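RNA-seq counts of 3 groups of 3 libraries were analysed, grouped by the labels. The authors deposited raw counts (whole numbers) for each gene as well as TPM, per the file headers. The build was GRCm38 and the tools were RSEM 1.3.3, STAR 2.7.8a, FastQC 0.11.8 and cutadapt 2.3, per the submitters' processing notes. The strand setting, the annotation release and any rounding of estimated counts were not given in the sources used here.

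The members and the 13 gene lists were chosen with earlier results of these data known. Counts of 16353 genes left by filterByExpr were scaled by TMM and fitted with edgeR 4.0.16 (quasi-likelihood, R 4.3.3), all 9 libraries in 1 fit with 6 residual degrees of freedom. Benjamini-Hochberg adjustment ran over all genes tested, with a threshold of 0.05, and "rose" or "fell" means past it. The SE is the log2 fold change over the root of F. CPM are scaled by the TMM library size. TPM were tested with limma 3.58.1 on log2(TPM + 1), a scale that understates changes of low genes such as Kcnq1ot1, and with a pseudocount of 0.1.

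On simulated counts for day 6 against day 0, all of the 2-fold and 4-fold changes set in 200 genes were recovered (100%). There were 15 false calls among 16353 genes. Only those 200 genes were changed, all above 1 CPM and as many up as down. In the data 64.9% of genes were called, so these rates may not carry over. Replicate letters gave no sign of pairing. Deviations of same-letter libraries correlated between −0.080 and 0.066, and those of different letters between −0.105 and 0.090. With 3 libraries per group this cannot show whether libraries of a letter shared a culture or batch. Named are all members, per list the 3 genes of lowest adjusted p for day 6 against day 0 and the 2 for day 12 against day 6, the nearest protein-coding genes and those starting within 1 kb, and the most similar genes by r (mean CPM of 1 or more). Some genes that this rule gave are not reported here. Other values named, such as CPM of single libraries or Pax8, give context. Alternatives were RLE and upper-quartile scaling, other filters, DESeq2 1.42.0, a replicate block, 2-group fits, scaling without mitochondrial genes and leaving out each library. Positions came from GENCODE M21, and 4 transgene rows were left out (at most 0.00284% of a library). Promoters came from RefSeq (GRCm38.p6), where Malat1, Kcnq1ot1, Gas5, Snhg1 and Snhg12 matched.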

Additional observations from a re-analysis of the deposited data

How the results depend on the processing

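Of the 9 counts of genes, members and list genes called, 1 moved by over 1.5 times. The members called between day 6 and day 0, 8 with edgeR, were 5 with DESeq2, and ranged from 5 to 9 when 1 library was left out. Those 5 came without replicate A of day 0 or without replicate C of day 6. With a replicate block, 10485, 7221 and 10743 genes and 8, 7 and 8 members were called for day 6 against day 0, day 12 against day 6 and day 12 against day 0. The letters gave no sign of pairing, so the block is a check only. On log2(TPM + 1) and log2(TPM + 0.1), the direction between day 12 and day 6 turned for Snhg12 (0.0087 and 0.0090), Neat1 (0.15 and 0.15), Kcnq1 (0.090 and 0.15), Tug1 (0.031 and 0.032), Pum2 (0.0040 and 0.0040), Frmd8 (0.15 and 0.16), Cdkn1c (0.067 and 0.068), Cilk1 (0.19 and 0.22) and Zbtb37 (0.10 and 0.12). These follow the shift of the median of all genes to 0.16 and 0.21 on those scales. Summing both Rmrp models, chosen after seeing the data, changed no count of members called. Counts of 83 to 517 for Rpph1 limit its precision.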

Other observations

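Gm37376, an antisense model inside Malat1 that shares 453 exon bases with it on the opposite strand, varied widely between libraries. It held 198, 1 and 0 counts in replicates A, B and C of day 0, 374, 69 and 441 at day 6 and 636, 609 and 286 at day 12. Day 12 lay above day 0 in every library, while Malat1 was lower at day 12 in every library. Since the strand setting of the counting is not given, reads of Gm37376 and Malat1 may not be told apart. C920006O11Rik, which starts 281 bases from Rn7sk on the other strand, was under 0.4 CPM on average in each group and passed the threshold in neither step. Of the snoRNA hosts, Snhg11 had the only log2 rise above 2 at day 6, from 0.108, 0.0639 and 0.216 CPM at day 0 to 0.931, 0.580 and 0.706, and was named after its values were seen.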
